A study of Papaver somniferum with 12 samples.

Results

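Of 61856 unigenes measured in leaves of opium poppy (Papaver somniferum), 295 were low only in seedling leaves, and the 150 of them with the largest difference are described here. A unigene is a sequence that the authors derived from long reads, and they count unigenes apart from their non-redundant isoforms. The leaves came from the original cultivar B1 at 4 growth phases with 3 libraries each: seedling, jointing (the stem elongates), bolting (the first small bud is seen) and florescence (first bloom). All plants grew in an experimental plot with no other treatment named, and the methods call the samples of a phase independent. The study defines a leaf sample as the top leaf of the plant. Phases were sampled on different dates and at different plant ages, so growth phase, sampling date and age cannot be told apart. RNA integrity as the study reports it also differed between phases. It was highest at jointing and tended to be lowest at florescence, and its part in the values was not tested.

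The members were chosen from the measured values themselves. RPKM values, that is reads per kilobase of unigene and per fixed number of mapped reads, were first divided by a factor for each library, the median of ratios over the 43618 unigenes above 0 in all 12 libraries. Scaled RPKM below means these divided values. A member had a mean of 5 to 1000 RPKM as deposited, its highest seedling library lay below the lowest of the 9 later libraries, and its jointing, bolting and florescence means lay within 0.5 of each other on log2(scaled RPKM + 1). Of 14941 unigenes in that range of means, 387 met the demand on the libraries, 7398 the demand on the later phases and 295 both. The difference used for ranking is the lowest later phase mean minus the seedling mean on that log2 scale. The contrast of seedling with the later phases chose the members, so their values in it are given as a description. Members also took part in a fit over all unigenes. Its standard errors, adjusted p values and calls for members belong to that description and are no independent test.

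Leaves that a plant forms early differ in form and metabolism from those it forms later, a passage from juvenile to adult growth best known from Arabidopsis and maize. In opium poppy the upper leaves are later carried by the elongating stem, and the plant accumulates benzylisoquinoline alkaloids in the latex of its laticifers. Which genes these are was not analysed here. The table gives identifiers only, and 0 of them occur in the gene table of assembly ASM357369v1, so no gene name, function, position or sequence is given. For the same reason leaf marker genes could not be looked up to check the labelled tissue.

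Within the chosen range of means, the members were of low to moderate abundance. They were present in seedling leaves and more abundant later. Their median level within a library was 6.12 ± 0.217 scaled RPKM in seedling leaves (mean and SD of 3 libraries, as for the other phases). It was 9.32 ± 0.287 in jointing leaves, 9.41 ± 0.636 in bolting leaves and 9.97 ± 0.259 in leaves at florescence. By library these medians were 6.15, 5.88 and 6.32 in seedling replicates 1 to 3, 9.62, 9.05 and 9.29 at jointing, 8.79, 9.39 and 10.1 at bolting, and 9.74, 10.3 and 9.91 at florescence. The 3 seedling libraries lay below the other 9, as the rule demands. The medians of all florescence libraries lay above those of all jointing libraries, and bolting overlapped both. No member was at 0 in any library, and only 1 had a seedling mean under 1 scaled RPKM. In these bulk samples fewer cells of a type and less RNA per cell cannot be told apart.

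**Figure D1:**
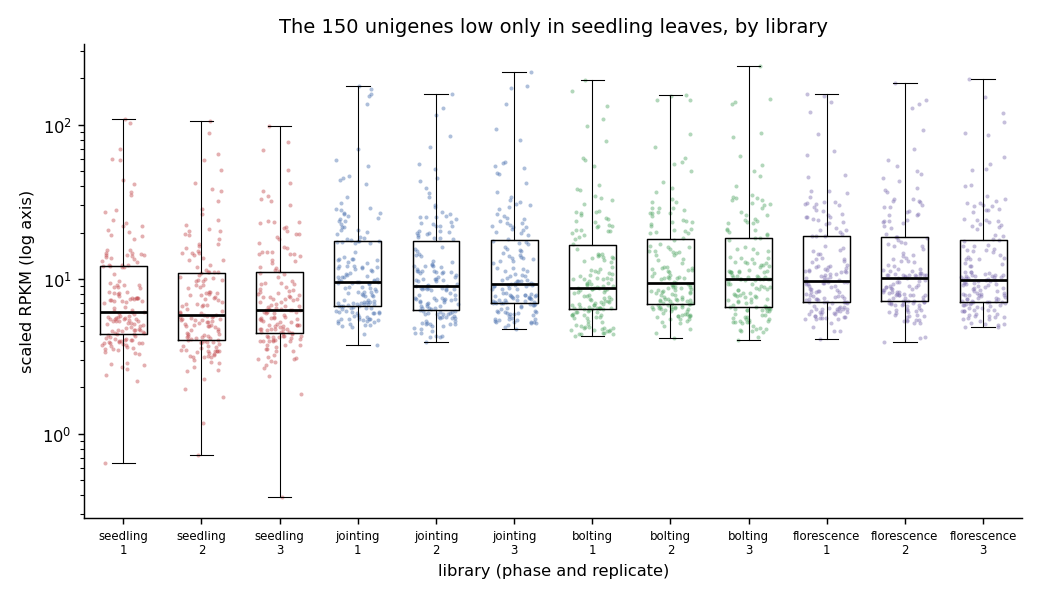
Scaled RPKM of the 150 unigenes low only in seedling leaves (log axis), 1 point per unigene, in each of the 12 libraries. Boxes span the quartiles with the median as a line, and whiskers reach the lowest and highest member. The library medians were 5.88 to 6.32 at seedling and 8.79 to 10.3 later.

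The step was small for most members. The ratio of the mean of the 9 later libraries to the seedling mean, on scaled RPKM, had a median of 1.52 and ran from 1.29 to 9.66. It was at least 2 in 17 members and under 1.5 in 71. On log2(scaled RPKM + 1) the difference had a median of 0.41, with quartiles of 0.34 and 0.56. It was at least 1 in 7 members, between 0.5 and 1 in 43 and under 0.5 in 100. The gap between the highest seedling library and the lowest later library had a median of 0.14 on the same scale and was under 0.1 in 57 members. For comparison, the median SD between the seedling libraries of a member was 0.13 on this scale, so for many members the groups were parted by about as much as the replicates differed.

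**Figure D2:**
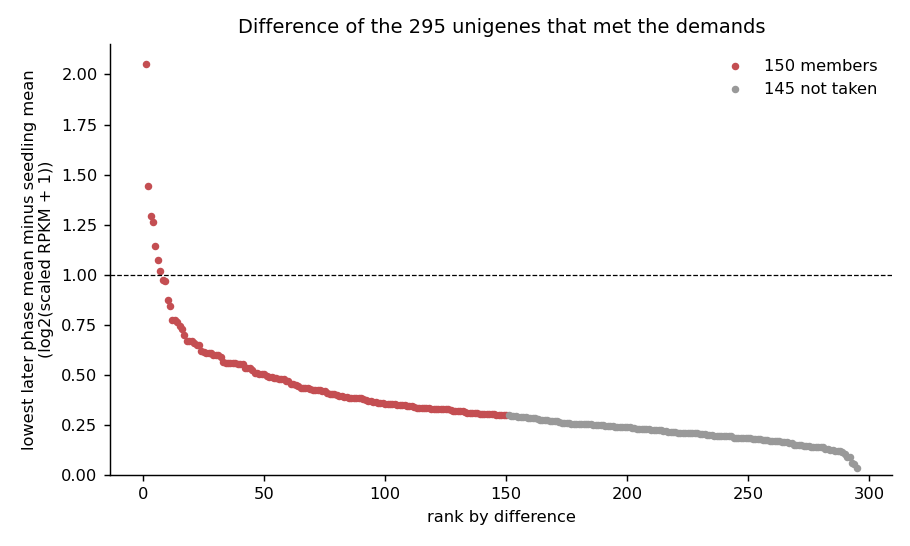
Difference between the lowest later phase mean and the seedling mean, on log2(scaled RPKM + 1), against rank for the 295 unigenes that met the demands. The dashed line marks a difference of 1, which 7 of the 150 members (red) reached. The 145 not taken (grey) continue the slope without a break, from 0.297 down to 0.033.

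There was no break in the values at the edge of the list. The last member, PB.54030.1, had a difference of 0.298, and the first unigene outside, PB.51957.4, had 0.297. PB.54030.1 had 7.32, 5.65 and 8.61 scaled RPKM in the seedling libraries, and its lowest later library was at 8.62. Seedling replicate 3 of this unigene therefore stood next to the later libraries, although its phase mean was lower. PB.51957.4 had 17.5, 18.1 and 17.5 at seedling, and its lowest later library was at 19.6. The list is thus a ranked part of a continuous series.

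The member with the largest difference was PB.46936.2. It had 0.644, 1.18 and 0.390 scaled RPKM in seedling replicates 1 to 3, then 6.14, 4.95 and 8.13 at jointing, 4.40, 7.91 and 6.38 at bolting, and 9.55, 9.79 and 6.92 at florescence. Its lowest later library thus held more than its highest seedling library by 1.31 on the log2 scale, the widest such gap among the members. The means were 0.738 ± 0.404, 6.41 ± 1.60, 6.23 ± 1.76 and 8.75 ± 1.59 scaled RPKM in the order of the phases (SD, n = 3). Later leaves held 9.66 times the seedling level, and the differences from seedling were 2.09, 2.05 and 2.50, each ± 0.23 (SE from limma) on log2(scaled RPKM + 1). The seedling mean was the only one under 1 scaled RPKM among the members and rests on an unknown number of reads.

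PB.58610.1 combined a large difference with a high level, and it was the member with the third highest mean, 136.6 RPKM as deposited. Its seedling libraries had 60.0, 50.5 and 34.3 scaled RPKM. The later libraries had 170.4, 129.0 and 218.2 at jointing, 195.2, 154.8 and 139.3 at bolting, and 153.7, 136.9 and 103.6 at florescence. Every later library exceeded every seedling library, by 0.78 on the log2 scale between the closest pair, while the 3 later phases overlapped. The differences were 1.82, 1.76 and 1.44, each ± 0.25 (SE). Its later mean was 3.22 times its seedling mean.

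PB.51833.1, the third by difference, was low in level among the members, with a mean of 6.87 RPKM as deposited. It had 2.20, 1.94 and 2.78 scaled RPKM at seedling, 6.56, 6.0 and 9.02 at jointing, 8.19, 9.18 and 11.3 at bolting, and 7.13, 7.26 and 6.76 at florescence. The bolting libraries were all above the florescence libraries, so the later phases were not level even within the limit of 0.5. The differences were 1.30, 1.67 and 1.29, each ± 0.15 (SE), and the ratio of later to seedling mean was 3.44.

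The other 4 members with a difference of at least 1 were singled out after their values were seen. PB.60832.1 had 2.63, 0.723 and 1.81 scaled RPKM at seedling, and its later libraries ran from 4.59 in bolting replicate 1 to 10.3 in florescence replicate 2. PB.59860.1 had 13.8, 8.06 and 7.98 at seedling, and its later libraries ran from 19.8 in jointing replicate 3 to 38.4 in bolting replicate 1. PB.58116.2 had 4.65, 1.73 and 3.08 at seedling and 6.37 to 10.2 later. In these 3 unigenes seedling replicate 1 was the highest of its phase and lay nearest to the later libraries.

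PB.57634.2 was abundant and less evenly parted. It had 70.0, 65.0 and 51.2 scaled RPKM at seedling, 158.2, 84.1 and 177.5 at jointing, 108.1, 152.2 and 135.4 at bolting, and 121.4, 186.7 and 197.9 at florescence. Jointing replicate 2 stood close above the seedling libraries, at 84.1 against 70.0, whereas the other jointing libraries were above 150. Its difference of 1.07 was set by bolting, and its ratio of later to seedling mean was 2.37. The differences from seedling were 1.10, 1.07 and 1.41, each ± 0.28 (SE). At bolting it missed the threshold of the calls given below, with an adjusted p of 0.0506 (limma).

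**Figure D3:**
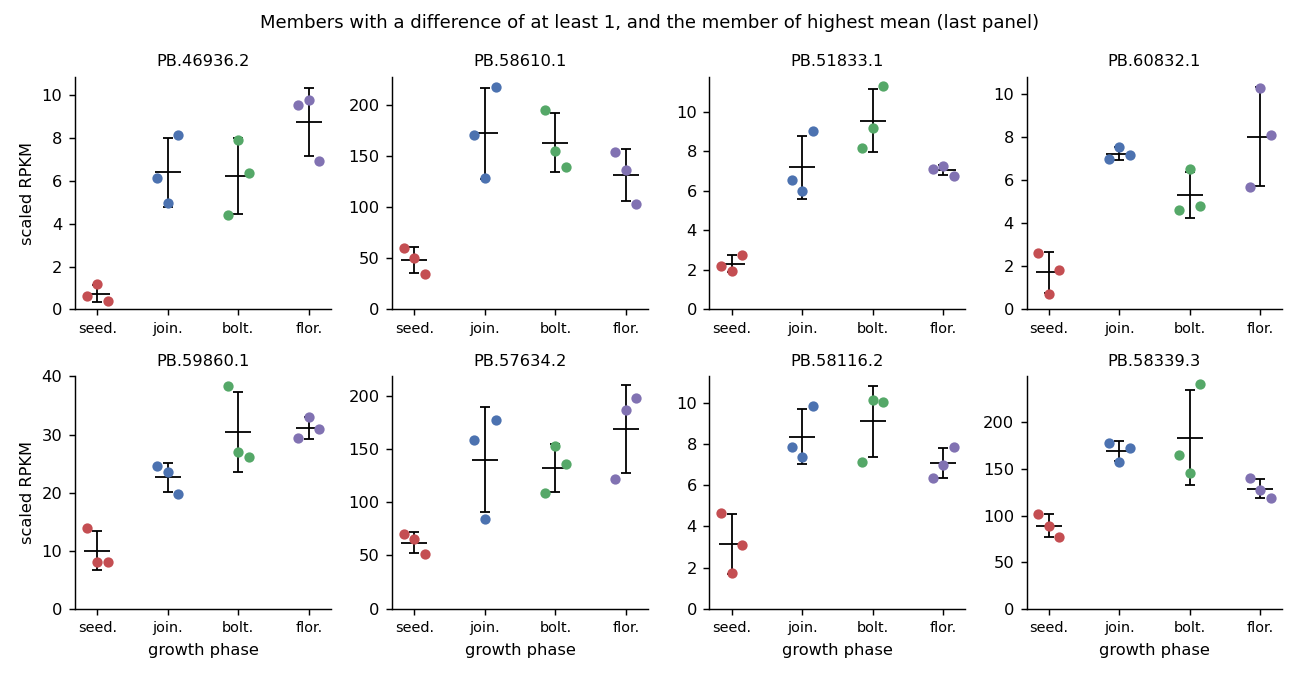
Scaled RPKM in each library (points, in replicate order 1 to 3 within a phase) with the phase mean and SD (black, n = 3) for the 7 members with a difference of at least 1 and for PB.58339.3, the member of highest mean. Each panel has its own linear axis from 0. All seedling points lie below all later points, and in PB.58339.3 the nearest are 101.9 at seedling and 119.3 later.

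Few members were abundant. Only 7 members had a deposited mean of at least 50 RPKM, against 82 under 10, and their ratios of later to seedling mean ran from 1.36 to 3.22. The highest was PB.58339.3, with 101.9, 88.6 and 76.8 scaled RPKM at seedling, 178.1, 157.5 and 172.2 at jointing, 164.9, 145.4 and 241.2 at bolting, and 140.0, 127.4 and 119.3 at florescence. Its florescence libraries lay nearest to the seedling libraries, and bolting replicate 3 was far above the other bolting libraries. The differences were 0.93 at jointing, 1.01 at bolting and 0.53 at florescence, each ± 0.17 (SE). At bolting the difference was 0.80 without bolting replicate 3 and 0.91 without seedling replicate 3. PB.60139.3, the second highest, had 108.1, 106.2 and 98.3 at seedling, and 114.6 in jointing replicate 2 as its lowest and 157.0 in florescence replicate 1 as its highest later library. Its later mean was 1.36 times its seedling mean, and jointing replicate 2 stood apart from the seedling libraries by only 0.08 on the log2 scale.

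Summed over all 150 members, seedling leaves had 1625 ± 46.4 scaled RPKM, jointing leaves 2651 ± 254.6, bolting leaves 2692 ± 92.1 and florescence leaves 2729 ± 66.9 (SD, n = 3). As a share of the deposited total of a library the members held 0.123% ± 0.0102 in seedling leaves, 0.286% ± 0.0566 in jointing leaves, 0.211% ± 0.0223 in bolting leaves and 0.312% ± 0.0228 in florescence leaves. The 2 measures order the later phases differently: the scaled sum is level from jointing on, whereas the share is lower at bolting than at jointing and florescence. The library factors moved the same way, with means of 0.859 ± 0.0369 for seedling, 1.17 ± 0.0945 for jointing, 0.904 ± 0.0535 for bolting and 1.17 ± 0.0510 for florescence. The part of these factors in the level course after seedling was not tested beyond the scalings given below.

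Florescence held the highest later mean in 77 members (51.3%), bolting in 40 and jointing in 33. Among the 7248 other unigenes of the same range of means whose later phases were also within 0.5, florescence was highest in 37.8%. Bolting was the lowest later phase in 63 members (42.0%), against 26.4% of those others, and jointing was lowest in 53. This order was not tested, and the demand that all later libraries exceed seedling bears on it. Among the 9 later libraries bolting replicate 1 was the lowest in 36 members and jointing replicate 2 in 29, whereas each florescence library was lowest in 8 to 11. Of the seedling libraries, replicate 2 was lowest in 60 members, replicate 3 in 54 and replicate 1 in 36.

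In the fit over all unigenes, limma tested the 31242 unigenes whose mean reached 1 RPKM. A call needed an adjusted p (Benjamini-Hochberg) below 0.05 together with a rise of 1 or more on the log2 scale. Among the members 8 of 150 were called higher at jointing, 17 at bolting and 17 at florescence. The background was 1.15% of all tested unigenes at jointing, 0.547% at bolting and 2.06% at florescence. Since this contrast chose the members, nothing is read from their counts. Without the demand on size 113, 66 and 137 members were called, beside 6.75%, 2.23% and 13.2% of all tested unigenes. In values as deposited 53, 20 and 73 members were called, beside 3.99%, 0.602% and 6.43%. The 3 comparisons share the seedling libraries and are not independent. The members had a median difference of 0.50 at jointing, of 0.49 at bolting and of 0.60 at florescence, with a median SE of 0.13 in each comparison, and that of all tested unigenes lay at -0.00, -0.01 and -0.01 in this order. The count at bolting was 8 without bolting replicate 3 and 10 without seedling replicate 2, and the count at jointing was 5 without seedling replicate 2. The counts over all tested unigenes fell in the same runs. They went from 171 to 104 and 106 at bolting, and from 360 to 197 at jointing.

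Each library was also read after it had taken no part in the choice. This was done by leaving out each library in turn, choosing 150 unigenes from the other 11 libraries by the same rule, and then looking at the library left out. With seedling replicate 1 left out, it lay below all 9 later libraries in 124 of the 150 unigenes chosen without it (82.7%), against 7.45% of all unigenes in the range of means. For seedling replicate 2 it was 119 (79.3%, against 6.66%) and for seedling replicate 3 it was 124 (82.7%, against 8.39%). The median difference in the library left out was 0.37, 0.41 and 0.35 for replicates 1 to 3, and 0.48, 0.47 and 0.47 in the 2 seedling libraries that had taken part. The left-out seedling libraries were thus low in most of the chosen unigenes, by less than the seedling libraries used. The 9 later libraries they were compared with had taken part in the choice, which favours unigenes that are high there, so these shares are partly set by the rule and are given as a description. The same holds for the seedling libraries when a later library was left out. Later libraries left out in the same way lay above all seedling libraries in 130 to 148 of 150 unigenes, with jointing replicate 3 (131) and bolting replicate 1 (130) at the low end, beside 23.1% to 35.9% of all unigenes in range.

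**Figure D4:**
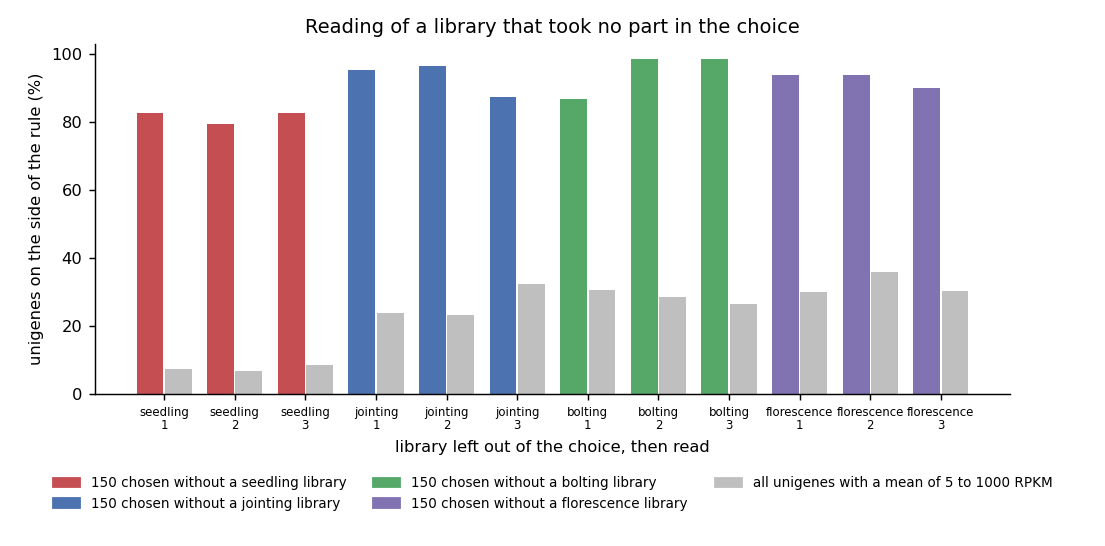
Percent of unigenes in which a library that took no part in the choice lay on the side the rule demands (below all later libraries for seedling, above all seedling libraries for the others). Coloured bars are the 150 unigenes chosen without that library and grey bars all unigenes with a mean of 5 to 1000 RPKM. Seedling libraries reached 79.3% to 82.7% among the chosen and 6.66% to 8.39% among all. The libraries they are compared with took part in the choice, so this contrast is partly set by the rule.

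The lists chosen in this way were not the same. They shared 105 to 138 unigenes with the 150 members, fewest without seedling replicate 2, and 44 members were chosen in all 12 cases. Of the 7 members with a difference of at least 1, only PB.58116.2 was chosen every time. PB.46936.2 was chosen in 9 of 12 cases, and the other 5 in 10 or 11. Which demand of the rule they missed in the remaining cases was not examined, so these counts do not speak to their seedling level alone.

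The same demands were made for the other phases. Under median-of-ratios scaling 295 unigenes were low only and 728 high only at seedling. At jointing the counts were 1273 and 347, at bolting 250 and 243, and at florescence 1476 and 1231. A difference of at least 1 was reached by 7 unigenes low and 33 high only at seedling, and by 188 low only at florescence. These counts were not tested against each other. In values as deposited the seedling counts turned to 887 low and 220 high, with 24 and 13 at a difference of at least 1, so which of the 2 is more common rests on the scaling. The other deposited counts of low and high were 225 and 1346 at jointing, 540 and 64 at bolting, and 547 and 2484 at florescence. Of the 8 courses, low only at seedling had the third lowest count when scaled and the third highest as deposited.

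**Figure D5:**
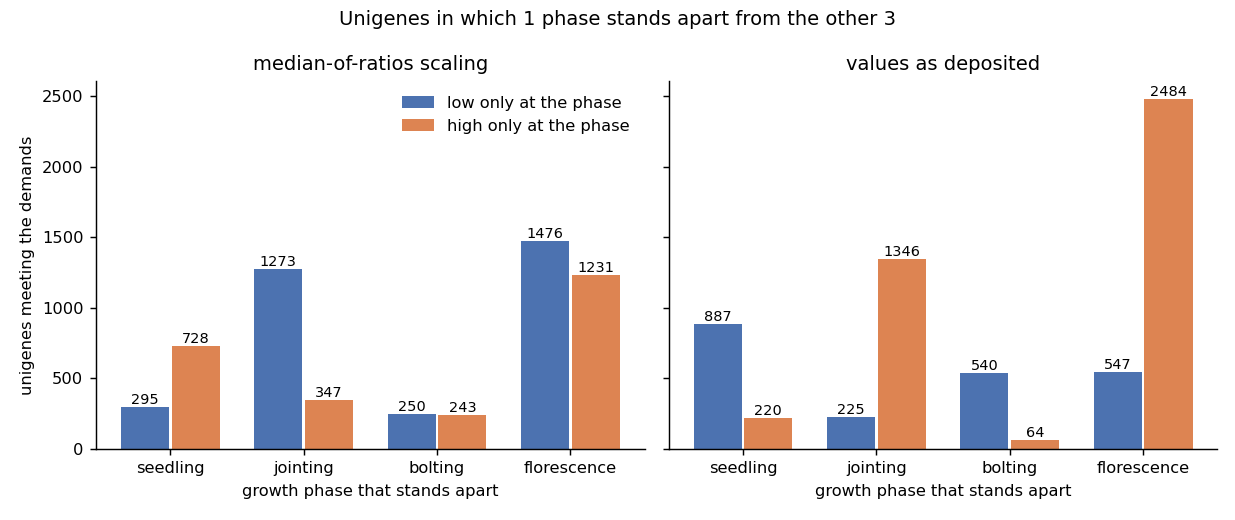
Number of unigenes with a mean of 5 to 1000 RPKM in which 1 phase lay below (blue) or above (orange) all libraries of the other 3 while the means of those 3 were within 0.5 on the log2 scale. Left, median-of-ratios scaling, with 295 low and 728 high only at seedling. Right, values as deposited, with 887 and 220.

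The scaling also decided which unigenes made up the list. Fewer members lost the gap between seedling and the rest, which the alternative scalings favour. In values as deposited 143 of the 150 members still had no overlap between seedling and later libraries, beside 10.2% of all unigenes in range (2.59% when scaled). The later phase means stayed within 0.5 in 85 of the 150 members, 83 met all demands and 55 were again among the first 150. With scaling to equal totals 134 kept no overlap, beside 9.75% of all unigenes in range, 43 met all demands and 36 were among the first 150. Of the 7 members with a difference of at least 1, 4 were among the first 150 as deposited and 2 with equal totals. Most members therefore had no overlap in either scaling, but these counts are no measure of how firmly the gap holds. The factors were 0.830 to 0.901 at seedling, 1.11 to 1.28 at jointing and 1.14 to 1.23 at florescence. Leaving them out raises jointing and florescence relative to seedling, so a kept gap to these phases was largely set in advance. With equal totals the later means stayed within 0.5 in 44 of the 150 members.

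Apart from their values the members shared little that the table shows. Each number after PB. occurs once in the table, so no unigene shares it with a member. The last number of the identifier, whose meaning is not given in the sources used here, was above 1 in 56.0% of the members and in 59.7% of the other unigenes in range. The members had a median deposited mean of 9.30 RPKM, against 13.9 for those others.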

How the data were processed

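Paired reads of 12 leaf libraries were mapped by the authors with HISAT2 (2.05) to their long-read unigenes and quantified with RSEM. The deposited values are RPKM with at most 2 decimals, and the methods name the fragment-based form. No normalization between libraries is stated, depth per unigene is unknown, and unigenes of near-identical sequence may share reads. Library totals ran from 998634 to 1175900 RPKM. Libraries were grouped by title, and 0 per-sample columns were unmatched. RPKM was scaled by median of ratios (factors 0.830 to 1.28) and compared with limma 3.58.1 (R 4.3.3) on log2(scaled RPKM + 1) with a mean-variance trend, all 12 libraries and phase as the only factor, in place of the count test of the study. The pseudocount understates changes of low unigenes. Scripts were tested on simulated data with planted differences larger than those of nearly all members, so small differences were not covered. The members and lists were chosen with earlier results of these data known. Named are the 3 members with the largest difference, the 3 with the highest mean and the pair at the edge of the list. Others are named after their values were seen. The reading of left-out libraries was added after seeing the data. Other unigenes of the members' loci were planned as a comparison but do not occur. Samples of a phase are taken as replicates on the word of the methods.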

Additional observations from a re-analysis of the deposited data

How the results depend on the processing

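Calls of members moved with size demand, scaling and filter. In the order jointing, bolting and florescence against seedling, 8, 17 and 17 members were called. With adjusted p alone (limma) the counts were 113, 66 and 137, and as deposited 53, 20 and 73. With equal totals they were 60, 17 and 112, and with pseudocount 0.1 15, 23 and 25. These settings tested the same 31242 unigenes. With a minimum mean of 10 RPKM the counts were 3, 12 and 9. That minimum left only 68 members in the fit, and the other 82 could not be called. The number of all unigenes tested under it is not given here, so its counts are not comparable with the others. All tested unigenes called higher numbered 360, 171 and 643 (lower: 1188, 327 and 1754). The counts higher were 2110, 698 and 4135 with adjusted p alone, 545, 262 and 1169 with pseudocount 0.1, and 130, 87 and 251 with a minimum mean of 10 RPKM. As deposited 1247 were higher and 511 lower at jointing, and 2009 and 938 at florescence. With equal totals these were 1442 and 478, and 2975 and 813. Scaling thus turned the majority at jointing and florescence, and the cause was not tested. At bolting it did not, with 188 higher and 269 lower as deposited and 170 and 282 with equal totals.

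The 295 unigenes that met the demands became 887 as deposited, 634 with equal totals and 138 with a deposited mean of at least 10 RPKM. Members again among the first 150 numbered 55, 36 and 68 in these settings, and the last is fewer by construction. The median difference of the members was 0.41, and 0.55 as deposited.

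With each library left out, members called ran from 5 (without seedling replicate 2) to 12 at jointing, 8 (without bolting replicate 3) to 19 at bolting and 12 to 21 at florescence. Unigenes called higher ran from 167 (without jointing replicate 3; 197 without seedling replicate 2) to 465, 104 (without bolting replicate 3; 106 without seedling replicate 2) to 208, and 616 to 687. Unigenes meeting the demands ran from 299 to 452 (without seedling replicate 2), members again among the first 150 from 105 to 138, and the median difference from 0.40 to 0.43.

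With the replicate number as a block the member counts were 8, 17 and 17, and the counts of all unigenes 336, 176 and 644. Deviations from phase means correlated above 0.1 in 8 of the 18 pairs of libraries with a common number. These correlations ran from -0.66 to 0.51. Pairs with different numbers are not given beside them, so whether the numbers pair the libraries was not settled. The alternatives were run only for the unigenes named by plan, not for members singled out after their values were seen. All of those run kept their direction. The demand that every later library exceed every seedling library largely fixed this in advance, so nothing is read from it. Among the unigenes run, PB.58339.3 alone changed a call. At bolting it lost its call without seedling replicate 3 (0.91) or bolting replicate 3 (0.80). At jointing it gained one as deposited (1.37) and without seedling replicate 1 (1.03). The comparison with other unigenes of the members' loci was not run, because each locus number occurs once.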
